A study of Mus musculus with 10 samples.

Results

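CSF1R, the receptor for colony stimulating factor 1, carries the main survival signal of macrophages, and CD40 is a receptor through which dendritic cells, macrophages and B cells are licensed to activate T cells. The comparison described here asks what an inhibitor of CSF1R added to an agonistic antibody against CD40, read in the RNA of T cells from mouse melanomas. It sets the libraries of mice given both agents (CSF1Ri+CD40, libraries 1 and 3) against those of mice given the antibody alone (CD40, libraries 1, 2 and 3), which are 5 of the 10 libraries of the series. The other 5 come from mice given the inhibitor alone (CSF1Ri, 2 libraries) and from mice given neither (Control, 3 libraries), and they entered the estimate of the spread and a second contrast, which sets the inhibitor's effect with the antibody against its effect without it.

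All mice carried the alleles BrafCA, Tyr::CreER and Ptenlox4-5, in which a recombinase driven by the tyrosinase promoter acts in melanocytes, so that control tumors have the same lesions. The genotype field nevertheless reads wild type, and the mice were matched for age, with no age stated. Treatment began 30 days after induction, at a volume below 100 mm3, and lasted up to 30 days or until 2 cm3. CSF1Ri+CD40 mice had chow with PLX6134 at 600 mg/kg and FGK4.5 at 10 mg/kg into the peritoneum every 3 days, up to 10 doses. CD40 mice had the same antibody with normal chow, CSF1Ri mice had the PLX6134 chow, and Control mice had normal chow. Some of the mice without antibody had PBS, and the labels do not say which. Each library was made from a pool of at least 3 tumors, so p-values measure the spread between pools.

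T cells recognise tumor antigen through the T cell receptor. CD8 T cells kill with perforin and granzymes, while other T cells act mainly through cytokines. One such group, the type 17 cells, which include many gamma delta T cells of the skin, secretes IL-17A, IL-17F and IL-22. CSF1R itself is a receptor of myeloid cells, so T cells are not the direct target of the inhibitor.

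The values are normalized counts, which are scaled and rounded, so their totals (12693982 and 12750973 for CSF1Ri+CD40, 11538244 to 14024851 for CD40) are not read depths. Sample titles say T cells but the tissue field says macrophages, and the protocol describes no sort. The 23 genes of T cell identity, such as Cd3e and the receptor chains, came to a sum of 199343 and 191717 in CSF1Ri+CD40 against 196993, 225756 and 149480 in CD40. The 24 macrophage genes summed to 15088 and 16773 against 20325, 15316 and 10083, and they include genes such as Ccr2 that T cells express too. Adgre1, the macrophage marker F4/80, was at 0 in both CSF1Ri+CD40 libraries and at 19, 19 and 0 in the CD40 libraries. The summed Y-linked genes Uty, Kdm5d, Eif2s3y and Ddx3y stood at 0 and 1 in CSF1Ri+CD40 and at 0, 1569 and 3072 in CD40. The X-linked transcript Xist was at 1412 and 2921 against 672, 0 and 5. CD40 2 and CD40 3 thus held Y-linked transcripts with little or no Xist, and the CSF1Ri+CD40 libraries the reverse, so the sex of the pooled mice may differ between the groups. Of the other 5 libraries, only Control 1 held Y-linked transcripts, with a sum of 2438 and Xist at 12. The Control pools may therefore differ in sex too. The log2 fold change of Xist, 6.995, was the largest of all genes tested. Sex-linked genes were left out of the 20 genes named below. Malat1, an abundant nuclear RNA, was at 20146 and 48947 against 25034, 35311 and 95260. CD40 3 stood furthest from the rest, with rank correlations across 8837 genes of 0.810 and 0.795 with CD40 1 and 2, whereas CD40 1 and CSF1Ri+CD40 1 correlated at 0.917. The part of the sex-linked genes and of Malat1 in the differences was not tested beyond the values given with them.

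Of 48825 genes, 14042 reached 10 normalized counts in 2 or more of the 5 libraries and were tested. None passed an adjusted p of 0.05 in limma (0 of 14042, 0%), and the smallest adjusted p was 0.554. At an unadjusted p under 0.05 there were 744 genes (5.3%), against 702.1 expected at this threshold if no gene differed. Of these, 396 were higher (2.82%) and 348 lower (2.48%) in CSF1Ri+CD40. In 2254 genes (16.1%) the libraries of the groups did not overlap (called apart here), 1225 of them higher in CSF1Ri+CD40 (8.72%) and 1029 lower (7.33%). With 2 against 3 libraries, a gene that is apart cannot reach a p of 0.05 by permutation, so being apart is a description and not a test. Genes without a difference can be apart with so few libraries, so the 2254 are not counted as differing. The median log2 fold change over all genes was 0.027. All differences below are therefore descriptions of these 5 libraries, and "higher" or "lower" refers to their values.

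The 20 genes named first were picked by this comparison, as the 10 per direction with the smallest p, given a mean of 50 or more and libraries that were apart. Their adjusted p in limma ran from 0.554 to 0.728. Among the 10 that were higher were 2 cytokines of type 17 cells, a granzyme, 2 enzymes on the cell surface that break down ATP or NAD, an inhibitory receptor and a transcription factor of cytokine-secreting T cells. Of the 10 that were lower, 7 were at 0 in at least 1 CSF1Ri+CD40 library.

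**Figure D1:**
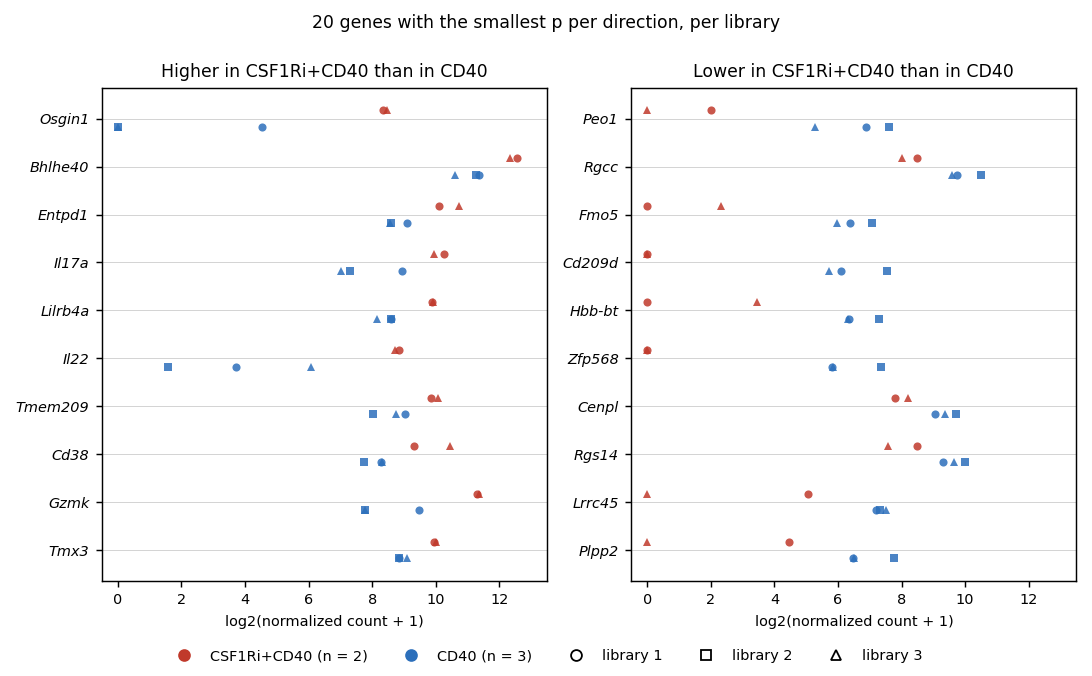
Normalized counts, as log2(value + 1), of the 20 genes named by the smallest p, with 1 row per gene and 1 symbol per library, CSF1Ri+CD40 in red above CD40 in blue. In the left panel the red symbols lie right of all blue ones, and in the right panel left of them, as the choice of genes requires; Osgin1 was at 0 in CD40 2 and CD40 3.

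Osgin1, a growth inhibitor induced by oxidative stress (chromosome 8, 119434124 to 119446256, GRCm38), had 323 and 352 normalized counts in the CSF1Ri+CD40 libraries and 22, 0 and 0 in the CD40 libraries. The 2 high libraries lay close together, and the log2 fold change was 6.89 ± 1.24 (SE). Bhlhe40, a transcription factor that supports cytokine production by T cells, had 5987 and 5175 against 2626, 2485 and 1571, and each CSF1Ri+CD40 library was above every CD40 library. Its log2 fold change was 1.36 ± 0.25. Lilrb4a, an inhibitory receptor whose reads may be shared with its close paralog, had 940 and 968 against 387, 385 and 283. The endoplasmic reticulum protein Tmx3 had 974 and 1032 against 457, 456 and 545, and the membrane protein Tmem209 had 916 and 1072 against 518, 262 and 431. Both groups were tight in Tmx3, the smallest of the 10 differences, with a log2 fold change of 1.05 ± 0.25.

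Genes of 2 enzymes that act on extracellular nucleotides were among the 20. Entpd1, which encodes CD39, the enzyme that starts the breakdown of extracellular ATP, had 1106 and 1682 in the CSF1Ri+CD40 libraries against 541, 383 and 373 in the CD40 libraries. The log2 fold change was 1.68 ± 0.32. Cd38, an NAD-consuming surface enzyme and activation marker, had 635 and 1398 against 311, 213 and 319, a log2 fold change of 1.77 ± 0.41. The groups did not overlap in either gene, but CSF1Ri+CD40 3 was well above CSF1Ri+CD40 1 in both. Of the 8 tested genes of purinergic and adenosine metabolism, 6 were higher and 2 lower, with a median of 0.44. Without overlap were 2 above and 1 below, where the shares of all genes were 8.72% and 7.33%. The 2 above were Entpd1 and Cd38 themselves, which this comparison had picked, so the list adds no other gene above. Without CD40 2 that median was -0.075 (4 higher, 4 lower), and in the libraries without Y-linked transcripts it was -0.098 (3 higher, 5 lower). Without the antibody both genes also had higher values with the inhibitor. Entpd1 had 572 and 541 in CSF1Ri against 355, 333 and 244 in Control, and Cd38 had 507 and 535 against 157, 251 and 165.

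Among the 10 genes that were lower, Rgcc, a regulator of the cell cycle, had 356 and 256 in the CSF1Ri+CD40 libraries against 856, 1452 and 765 in the CD40 libraries, a log2 fold change of -1.70 ± 0.33. Rgs14, a regulator of G protein signaling, had 355 and 188 against 628, 1025 and 809, and the centromere protein gene Cenpl had 222 and 295 against 527, 838 and 662. In these 3 genes every library held at least 188 normalized counts. The other 7 were at 0 in at least 1 CSF1Ri+CD40 library. Peo1, the older symbol of the mitochondrial DNA helicase Twinkle, had 3 and 0 against 116, 193 and 38, and the monooxygenase gene Fmo5 had 0 and 4 against 83, 133 and 61. Lrrc45 had 32 and 0 against 145, 158 and 180, and the phospholipid phosphatase gene Plpp2 had 21 and 0 against 87, 218 and 90. Cd209d and Zfp568 were at 0 in both CSF1Ri+CD40 libraries. Cd209d, a lectin of the DC-SIGN family, had 68, 184 and 52 in the CD40 libraries, and was at least 33.8-fold lower with both agents against a floor of 3 counts per library. The zinc finger gene Zfp568 had 55, 164 and 57 in the CD40 libraries and was at least 30.7-fold lower on the same floor.

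The 3 cytokine genes of type 17 cells were higher in both CSF1Ri+CD40 libraries than in any CD40 library. Il17a, on chromosome 1 (20730905 to 20734496), had 1215 and 978 in the CSF1Ri+CD40 libraries against 485, 155 and 128 in the CD40 libraries, a log2 fold change of 2.35 ± 0.46 with an adjusted p of 0.554 in limma. Its neighbour Il17f had 3997 and 4370 against 2058, 188 and 86, a log2 fold change of 3.69 ± 0.98. CD40 1 lay between the CSF1Ri+CD40 libraries and the other CD40 libraries in both genes. Il22 had 455 and 419 against 12, 2 and 67, a log2 fold change of 4.98 ± 1.13. In Il22, CD40 1 was as low as the other CD40 libraries.

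The promoters of these genes are shown because they are the cytokine genes described above, beside that of Irf1, an interferon-induced transcription factor among the genes of the interferon gamma response. The sequences are from RefSeq (GRCm38.p6), run 5′ to 3′ on the strand of the gene from 250 bases before to 50 after its start, and have in capitals the matches to AGGTCA (a ROR half-site), TTCNNNGAA (an interferon gamma-activated sequence) and TGANTCA (an AP-1 site), searched on both strands.
Il17a promoter, chr1:20730655-20730954, plus strand: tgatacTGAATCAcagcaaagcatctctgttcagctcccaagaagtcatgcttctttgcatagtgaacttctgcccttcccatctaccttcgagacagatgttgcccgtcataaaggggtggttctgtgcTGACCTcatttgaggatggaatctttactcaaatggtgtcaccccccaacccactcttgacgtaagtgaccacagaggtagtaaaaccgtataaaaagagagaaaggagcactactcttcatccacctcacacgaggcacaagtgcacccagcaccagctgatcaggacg
Il17f promoter, chr1:20784221-20784520, minus strand: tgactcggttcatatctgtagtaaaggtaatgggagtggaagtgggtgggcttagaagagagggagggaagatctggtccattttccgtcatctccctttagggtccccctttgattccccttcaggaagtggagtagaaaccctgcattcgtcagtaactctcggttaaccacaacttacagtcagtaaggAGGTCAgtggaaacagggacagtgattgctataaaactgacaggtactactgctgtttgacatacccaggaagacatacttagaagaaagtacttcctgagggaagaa
Il22 promoter, chr10:118204714-118205013, plus strand: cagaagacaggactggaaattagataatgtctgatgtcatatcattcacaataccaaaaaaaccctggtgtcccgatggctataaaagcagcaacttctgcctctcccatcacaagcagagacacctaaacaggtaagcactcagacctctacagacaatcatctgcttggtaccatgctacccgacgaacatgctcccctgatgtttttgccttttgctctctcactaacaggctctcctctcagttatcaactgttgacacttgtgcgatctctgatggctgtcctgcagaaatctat
Irf1 promoter, chr11:53769764-53770063, plus strand: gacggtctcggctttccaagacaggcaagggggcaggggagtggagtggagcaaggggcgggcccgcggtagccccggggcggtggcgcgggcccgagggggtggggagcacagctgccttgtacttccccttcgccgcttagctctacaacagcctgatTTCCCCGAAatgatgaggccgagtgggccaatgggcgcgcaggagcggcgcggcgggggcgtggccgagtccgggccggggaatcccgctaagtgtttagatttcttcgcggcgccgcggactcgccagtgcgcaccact
The Il17a window held AGGTCA on the opposite strand, 120 bases before the start, and TGANTCA 244 bases before it. The Il17f window held AGGTCA 58 bases before the start, and the Irf1 window held TTCNNNGAA 90 bases before it. None of the 3 letter patterns was in the Il22 window. They are common: of 32851 promoters of the same length, 16.26% held AGGTCA, 8.298% held TTCNNNGAA and 7.808% held TGANTCA.

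Other genes of the same cells were less alike. Il23r, the receptor for the cytokine that sustains type 17 cells, had 130 and 127 in the CSF1Ri+CD40 libraries against 68, 3 and 29 in the CD40 libraries. Trdc, which encodes the invariant part of the delta chain and marks gamma delta T cells, overlapped, with 3061 and 3123 against 3527, 2450 and 5940. Of the 15 tested genes of gamma delta and type 17 T cells, out of 18 listed, 12 were higher and 3 lower, with a median log2 fold change of 0.30. In 5 of the 15 the groups did not overlap, all higher in CSF1Ri+CD40, against 8.72% of all genes. Il17a and Il22, which this comparison had picked, are among the 5. The direction of the list turned without CD40 2, when 7 genes were higher and 8 lower with a median of -0.17, and with the replicate number as a block they were 7 and 8 with a median of -0.046. In bulk RNA, more cells of a type and more RNA per cell cannot be told apart.

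CD40 2 and CD40 3, which among the compared libraries held Y-linked transcripts, had the lowest Il17a and Il17f. Without CD40 3 the log2 fold changes were 1.99 for Il17a, 2.74 for Il17f and 6.13 for Il22. Among the libraries without Y-linked transcripts, where CD40 1 is the only library left from mice given the antibody alone, they were 1.17, 1.02 and 5.07. Without CD40 1, Il17a, Il17f and Osgin1 passed the threshold, each with an adjusted p of 0.00425 in limma. CD40 1 was the highest CD40 library in each of these genes, so leaving it out could only widen the differences. The CD40 libraries then left had Y-linked sums of 1569 and 3072, and the CSF1Ri+CD40 libraries 0 and 1.

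The same genes had the reverse order without the antibody. Il17a had 1070 and 1138 in the CSF1Ri libraries against 3182, 3672 and 4222 in the Control libraries, so that the inhibitor libraries were below all controls there and above all CD40 libraries when the antibody was given. The difference between the inhibitor's effects with and without the antibody was 4.08 ± 0.66 on the log2 scale for Il17a, with an unadjusted p of 6.5e-05 and an adjusted p of 0.650 in limma. Il17f had 2044 and 3067 in CSF1Ri against 3196, 7086 and 6212 in Control. Il22 had 11 and 58 against 191, 294 and 231, and its difference between the effects was 8.13 ± 1.60, with an adjusted p of 0.987. Tnfaip3, which encodes the NF-kB inhibitor A20, had the same order, with 2906 and 5964 in CSF1Ri+CD40 against 1690, 2031 and 833 in CD40, and 3223 and 2029 in CSF1Ri against 6755, 4391 and 5004 in Control. Of the 25 NF-kB feedback genes, however, 13 were higher and 12 lower in CSF1Ri+CD40, with a median of 0.054. Control 1, whose values come first among the Control values here, held Y-linked transcripts. It had 3182 for Il17a and 3196 for Il17f.

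**Figure D2:**
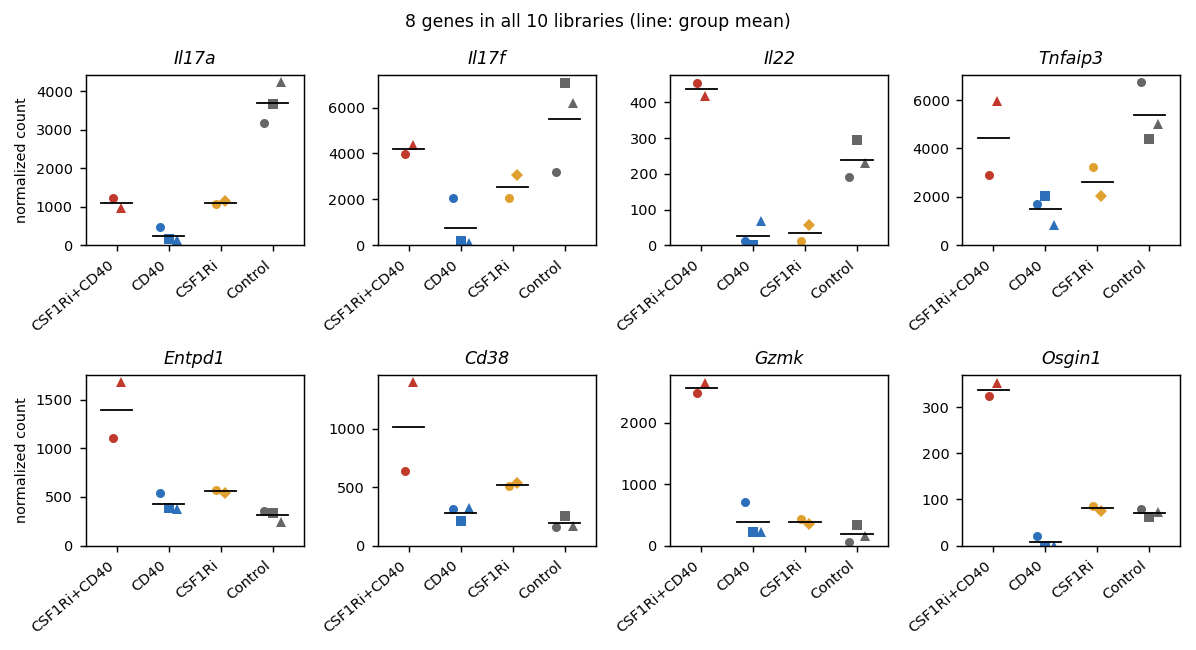
Normalized counts of 8 genes in all 10 libraries, 1 panel per gene with its own axis from 0, groups from left CSF1Ri+CD40, CD40, CSF1Ri and Control; circles, squares and triangles are libraries 1, 2 and 3, the diamond is CSF1Ri 6 and the lines are group means. Il17a, Il17f, Il22 and Tnfaip3 were lower in CSF1Ri than in Control and higher in CSF1Ri+CD40 than in CD40, while Entpd1 and Cd38 were higher with the inhibitor in both pairs.

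No gene passed the test of that difference (0 of 14042, 0%, adjusted p at least 0.650 in limma), and 605 (4.31%) had an unadjusted p under 0.05. The inhibitor's log2 fold changes with and without the antibody, which come from separate libraries, correlated across the 14042 genes at r = -0.014 and rho = -0.012, a description over genes that share a fit, and 49.05% of genes had the same direction in both. Of the 20 named genes, 16 had the same direction, 8 of the 10 higher and 8 of the 10 lower. The exceptions were Il17a and Il22 among the higher and Peo1 and Fmo5 among the lower. Fmo5 had 160 and 64 in CSF1Ri against 18, 109 and 44 in Control, overlapping ranges. Osgin1 had 86 and 75 in CSF1Ri against 80, 62 and 72 in Control, so that its 2 high libraries were those of CSF1Ri+CD40 and its 3 lowest those of CD40.

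**Figure D3:**
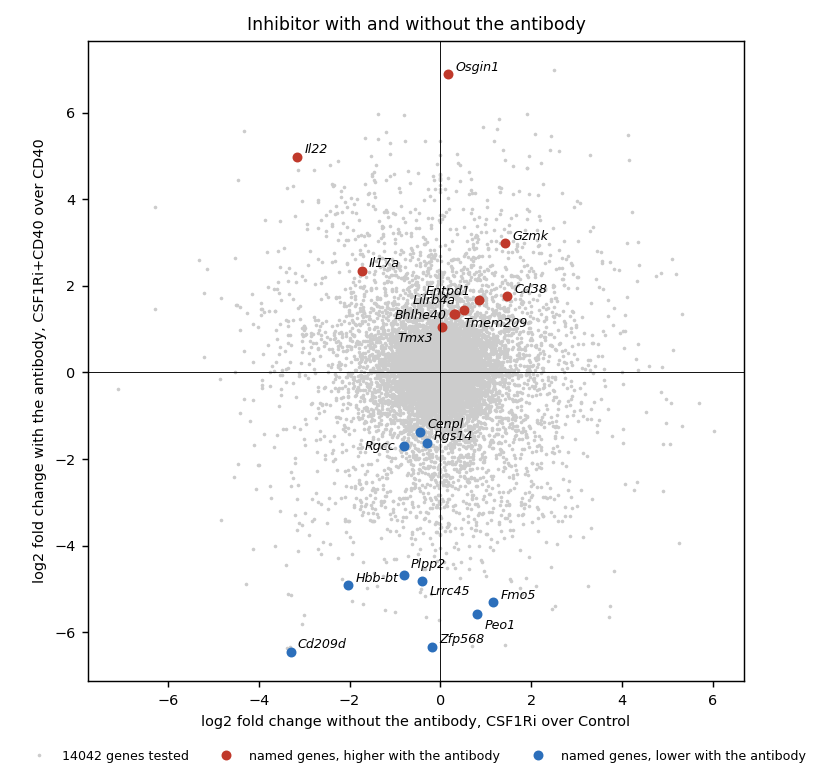
The log2 fold change of CSF1Ri+CD40 over CD40 (vertical) against that of CSF1Ri over Control (horizontal), 1 point per gene for 14042 genes, the 20 named genes in colour. The cloud shows no slope (r = -0.014), and Il17a and Il22 lie at the upper left, higher with the antibody present and lower without it.

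The gene lists below are described by their members' values and their median log2 fold change. Of 40 lists, 8 kept the sign of the median in all 19 alternatives, and 32 turned round in at least 1. The alternatives leave out libraries, change the scaling, the filter or the variance model, or add a term. Those with the 5 libraries alone, without the variance trend and without the filter leave the lists' fold changes unchanged, so they could not turn a median. The 8 were cytotoxic effectors, inhibitory receptors, activation genes, the interferon gamma response, immediate early genes and the cell cycle on the higher side, and MHC class II presentation and erythroid genes on the lower side. Values that turned round are given with the lists that leaned one way. Several lists hold genes that this comparison had picked, such as Entpd1, Cd38, Il17a, Il22, Osgin1 and Hbb-bt, so their counts of genes apart include these.

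Genes of cytotoxic effectors were mostly higher with both agents. Gzmk, a granzyme of memory-like CD8 T cells, had 2491 and 2651 in the CSF1Ri+CD40 libraries against 710, 217 and 219 in the CD40 libraries, a log2 fold change of 2.99 ± 0.69. Gzma had 2838 and 2642 against 1591, 1071 and 444, and Prf1, the pore-forming perforin, had 839 and 874 against 511, 330 and 515. The chemokine gene Ccl5 had 42854 and 67337 against 25018, 27801 and 5367, and Klrg1, a receptor of terminal effector cells, had 3009 and 3350 against 1820, 1670 and 2161. In all of these genes the groups were apart. Gzmb overlapped, with 6901 and 4972 against 4057, 7246 and 2457. Of the 18 tested of 21 genes, 15 were higher and 3 lower, with a median of 0.70. The groups did not overlap in 7 above, against 8.72% of all genes, and in 2 below, against 7.33%. Without CD40 3, whose granzyme and chemokine values were low, the same list had a median of 0.28, with 7 above and 4 below, where the shares of all genes were 18.6% and 18.4%. In the libraries without Y-linked transcripts the median was 0.19.

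The genes of the CD8 receptor were also lowest in CD40 3. Cd8a had 3785 and 4947 in the CSF1Ri+CD40 libraries against 3949, 2744 and 1051 in the CD40 libraries, and Cd8b1 had 5296 and 6766 against 5380, 4172 and 1577. Both overlapped through CD40 1. Without CD40 3 the log2 fold change of Cd8a was 0.39, against 0.94 with it. Cd4 had 4203 and 2403 against 2764, 2794 and 3738, and Foxp3, the regulator of regulatory T cells, had 2673 and 2231 against 1693, 1613 and 2713. Cd3e had 23096 and 22407 against 17238, 17149 and 18088. Of the 23 genes of T cell identity, Cd3e was the only one without overlap. Of the 16 genes of regulatory T cells, 9 were higher and 7 lower, and the only one without overlap was the cytokine gene Il10, with 456 and 563 against 272, 272 and 150. For both lists, the shares of all genes apart were 8.72% above and 7.33% below.

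The cytokine genes went different ways. Tnf, the tumor necrosis factor, had 345 and 165 in the CSF1Ri+CD40 libraries against 750, 662 and 381 in the CD40 libraries, a log2 fold change of -1.26 ± 0.42, and all CD40 libraries were above both. Ifng, the interferon of cytotoxic and type 1 helper cells, overlapped, with 2145 and 2267 against 2659, 1949 and 203, and its low value was that of CD40 3. Il2, the T cell growth factor, overlapped too, with 171 and 209 against 280, 418 and 66. Of the 15 tested cytokine genes, 7 were higher and 8 lower, 5 without overlap above and 2 below, against 8.72% and 7.33% of all genes. Among 13 genes of the type 1 helper program, 11 were higher and 2 lower with a median of 0.30 and no gene apart, as in Il18rap, with 1033 and 1288 against 1078, 723 and 639. That median was 0.056 without CD40 2 and 0.15 without CSF1Ri+CD40 1. With a term for Y-linked transcripts it was 0.046, and in the libraries without them it was -0.077, with 6 higher and 7 lower. The 10 genes of the type 2 program were 5 higher and 5 lower, also with none apart.

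Inhibitory receptors and genes of exhaustion were higher in 17 of 20 and lower in 3, with a median of 0.35, and 8 were apart above and 0 below, against 8.72% and 7.33% of all genes. Besides Entpd1, Prdm1, which encodes the repressor BLIMP-1, had 517 and 846 in the CSF1Ri+CD40 libraries against 162, 225 and 337 in the CD40 libraries. Tox, a regulator of exhausted T cells, had 1877 and 1425 against 732, 394 and 1351, and Nr4a2, a nuclear receptor induced by T cell receptor signals, had 72 and 153 against 9, 69 and 4. These genes were apart, although the lowest CSF1Ri+CD40 value was close to the highest CD40 value in Tox and Nr4a2. Havcr2, which encodes TIM-3, had 852 and 680 against 416, 646 and 286. Pdcd1, which encodes PD-1, overlapped, with 5676 and 3324 against 5537, 2833 and 1868, and Lag3 overlapped with 575 and 375 against 283, 330 and 437. Without CD40 3 the list median was 0.52, but 12 genes were higher and 8 lower. Of the 20 genes, 11 were then apart above, against 18.6% of all genes, and 3 below, against 18.4%. With a term for Y-linked transcripts the median was 0.35, but 11 genes were higher and 9 lower.

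Genes of naive and memory cells were close to even, with 9 higher and 8 lower of 17 and a median of 0.038. Eomes, a transcription factor of memory CD8 T and NK cells, had 208 and 425 in the CSF1Ri+CD40 libraries against 65, 70 and 131 in the CD40 libraries. Bcl6, a regulator of follicular helper cells, had 6 and 14 against 53, 27 and 40, the reverse order. Tcf7, the transcription factor of naive and stem-like T cells, overlapped with 2390 and 1674 against 2132, 1353 and 4349.

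Activation genes leaned to higher values, as did residency and homing genes. In the fits that account for Y-linked transcripts, fewer activation genes were higher, and the residency and homing genes no longer leaned that way. Of 23 activation genes, 17 were higher and 6 lower, with a median of 0.24, and of 18 residency and homing genes 15 were higher and 3 lower, with a median of 0.26. With a term for Y-linked transcripts the residency list had 8 higher and 10 lower with a median of -0.045, and in the libraries without them 7 higher and 11 lower with a median of -0.065. The activation list had 13 higher and 10 lower in each of these fits, with medians of 0.28 and 0.14. Cd69, an early activation marker that also retains T cells in tissue, had 6184 and 9429 in the CSF1Ri+CD40 libraries against 5742, 4406 and 3615 in the CD40 libraries. The residency gene Rgs1 had 16998 and 22356 against 11740, 12703 and 7119. Ahr, a ligand-activated transcription factor needed by gamma delta T cells of mouse epidermis, had 126 and 285 against 67, 43 and 27, and the chemokine receptor gene Ccr2 had 3800 and 5031 against 2802, 2501 and 3482. The groups were apart in these 4 genes. They were apart above in 6 of the activation genes and below in 2, and in the residency list above in 5 and below in 1, where the shares of all genes were 8.72% and 7.33%. Without CD40 3 the counts were 12 and 5 of the activation genes and 7 and 5 of the residency list, where those of all genes were 18.6% and 18.4%. Cd40lg, the ligand of CD40 on helper T cells, was lower, with 648 and 531 against 860, 772 and 741. Il2rb, a chain of the IL-2 receptor, had 7260 and 5343 against 5181, 3902 and 3944, and the transferrin receptor gene Tfrc had 397 and 572 against 262, 248 and 321.

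Chemokine genes had a median of 0.57, with 13 of 18 higher and 5 lower, 3 apart above and 1 below, against 8.72% and 7.33% of all genes. Among the 13 were Ccl2, Ccl7 and Ccl8, although their means were lower with both agents, as in Ccl7 with 31 against 117. Ccl4, which attracts T cells and monocytes, had 6380 and 8292 in the CSF1Ri+CD40 libraries against 3367, 3922 and 188 in the CD40 libraries, and Ccl3 had 1074 and 1830 against 912, 847 and 203. CD40 3 was far below the rest in both. Without CD40 3 the log2 fold change of Ccl4 was 1.00, against 2.42 with it, and the median of the chemokine list was -0.24, with 8 higher and 10 lower. In the libraries without Y-linked transcripts it was -0.52, with 5 higher and 13 lower, and with libraries weighted by their agreement it was -0.21.

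Targets of interferon gamma were higher in 23 of 27 tested genes and lower in 4, with a median of 0.31, and 6 were apart above and 0 below, against 8.72% and 7.33% of all genes. Irf1 had 3187 and 4252 in the CSF1Ri+CD40 libraries against 2193, 1989 and 2039 in the CD40 libraries, a log2 fold change of 0.83 ± 0.21. The 3 CD40 libraries lay close together. Iigp1, a GTPase of defense against intracellular microbes, had 2700 and 2562 against 1964, 1076 and 804. Cd274, which encodes PD-L1, had 471 and 398 against 237, 238 and 267, and Gbp7 had 4982 and 5676 against 4117, 2460 and 4371. Without CD40 3 the list median was 0.29 and 10 genes were apart above, against 18.6% of all genes, and 1 below, against 18.4%. In the libraries without Y-linked transcripts the median was 0.078, with 17 higher and 10 lower. Ifng itself overlapped between the groups, as given above. Genes of the type I interferon response were closer to even, at 13 higher and 10 lower of 23 with a median of 0.069. In 4 genes the libraries were apart, all above, against 8.72% of all genes, as in Trim30a, with 747 and 847 against 569, 495 and 404.

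Genes of MHC class I presentation were near even, with 12 higher and 9 lower of 21 and a median of 0.018, and without CD40 3 with 6 higher and 15 lower and a median of -0.15. The class I gene H2-Q6, one of a family of close copies, had 3223 and 3604 in the CSF1Ri+CD40 libraries against 2403, 2351 and 2319 in the CD40 libraries, and Erap1, which trims peptides for class I, overlapped with 813 and 1498 against 816, 292 and 758. Genes of class II presentation were lower in 11 of 13 with a median of -0.14. None was apart, where the shares of all genes were 8.72% above and 7.33% below. Without CD40 2, and also without CSF1Ri+CD40 3, they were 6 higher and 7 lower, with medians of -0.018 and -0.071. H2-DMb1, a chaperone that loads class II, had 68 and 58 against 333, 171 and 63.

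**Figure D4:**
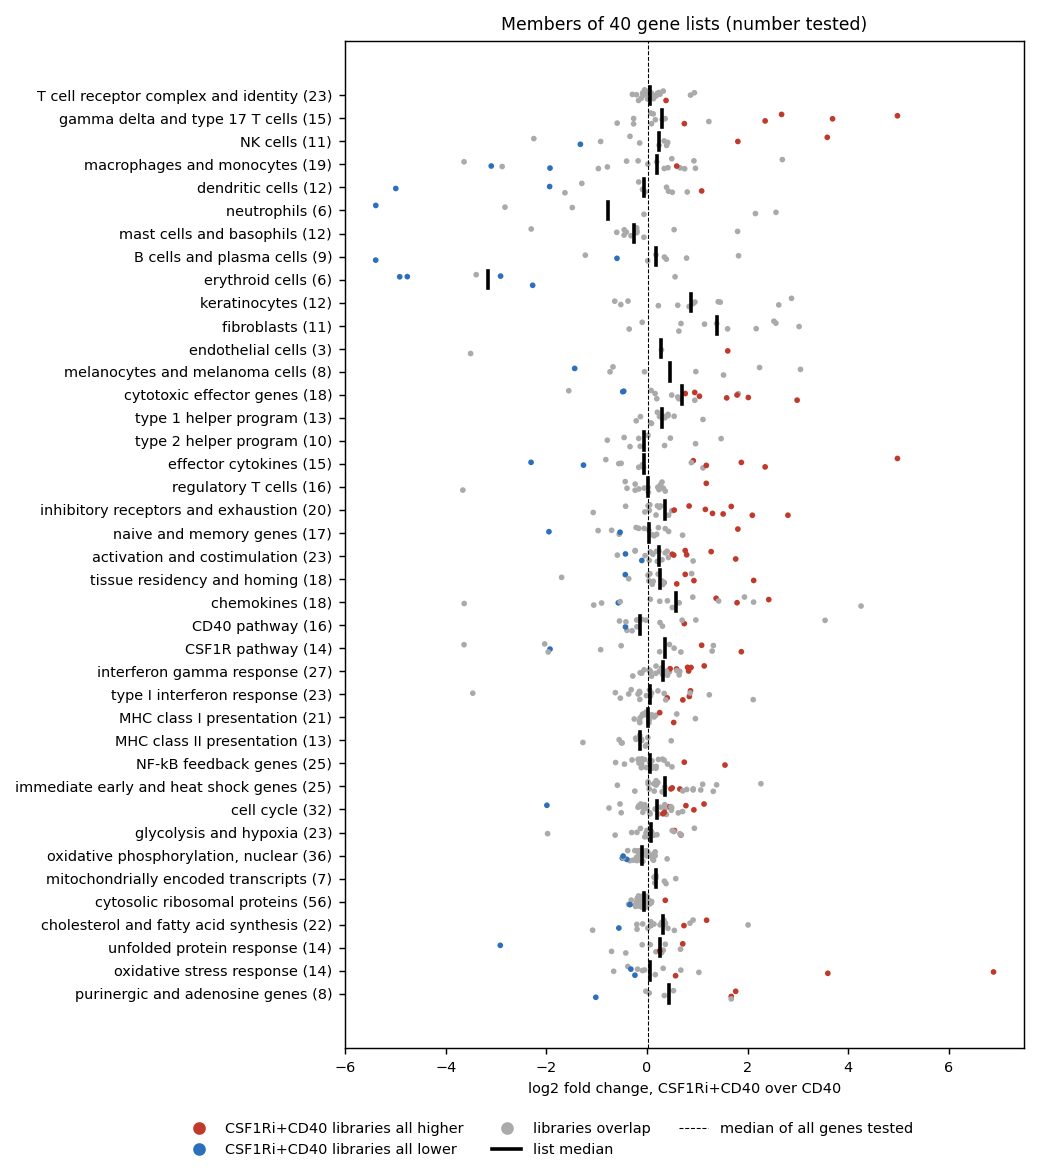
Log2 fold change of CSF1Ri+CD40 over CD40 for the tested members of 40 gene lists, 1 point per gene and 1 row per list with the number tested in parentheses; short black lines are list medians and the dashed line is the median of all genes (0.027). Points in red or blue have groups that do not overlap; no point passed the adjusted threshold, and the erythroid list has the lowest median (-3.15).

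The target of the inhibitor had low values in all libraries. Csf1r had 30 and 41 in the CSF1Ri+CD40 libraries against 235, 99 and 109 in the CD40 libraries, a log2 fold change of -1.93 ± 0.57 with an adjusted p of 0.827 in limma. Both CSF1Ri+CD40 libraries were also below the 99 and 133 of CSF1Ri and the 110, 120 and 106 of Control. Other myeloid genes were uneven. Fcer1g and Tyrobp, adaptor genes of myeloid and NK receptors, had 671 and 520 against 1353, 2782 and 864, and 445 and 373 against 1062, 1244 and 349. The complement gene C1qb had 27 and 80 against 398, 0 and 0. It counts as higher, with a log2 fold change of 2.69, although its mean was 53.5 against 132.7. Over the 19 tested macrophage genes 11 were higher and 8 lower, with a median of 0.19. Apart above was 1 and below were 2, where the shares of all genes were 8.72% and 7.33%. Their median was -0.55 without CD40 3, -0.075 without CSF1Ri+CD40 1, -1.21 with a term for Y-linked transcripts and -1.90 in the libraries without these. Over the 14 genes of the CSF1R pathway 8 were higher and 6 lower with a median of 0.35, which was -0.21 without CD40 3, -0.26 without CSF1Ri+CD40 3, -0.51 with the Y-linked term and -0.98 in the libraries without Y-linked transcripts. Cd40 overlapped, with 156 and 85 against 205, 405 and 42, and the 16 genes of its pathway were 6 higher and 10 lower with a median of -0.13, which turned to between 0.033 and 0.16 without any one of the CD40 libraries. Rel, an NF-kB subunit in that pathway, had 309 and 490 against 187, 223 and 300.

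Markers of other cell types were mostly low and varied widely between libraries of a group. Dendritic cell genes were lower in 7 of 12, and the lectin genes Clec10a and Cd209a, at 7 and 0 against 149, 90 and 53 and at 69 and 70 against 216, 534 and 168, were apart below. Flt3, a growth factor receptor of dendritic cells and their precursors, was the 1 gene of that list apart above, with 80 and 86 against 42, 26 and 52. Of all genes, 8.72% were apart above and 7.33% below. The plasma cell gene Mzb1 was at 0 in both CSF1Ri+CD40 libraries and at 79, 11 and 77 in the CD40 libraries, at least 18.6-fold lower on the floor of 3 counts. Over 9 tested B and plasma cell genes 6 were higher and 3 lower, and 2 were apart below, Mzb1 among them, against 7.33% of all genes. Red cell transcripts were lower, with 5 of 6 tested erythroid genes lower, a median of -3.15 and 4 apart below, against 7.33% of all genes. That median was -0.92 without CSF1Ri+CD40 1 and -5.39 without CSF1Ri+CD40 3. The summed erythroid genes came to 13 and 534 against 877, 1195 and 972. Hbb-bt, a beta globin gene among the 20 named, had 0 and 10 against 80, 155 and 79, Hbb-bs had 0 and 253 against 371, 500 and 438, and Hba-a1 had 10 and 191 against 325, 473 and 267. Alas2, the first enzyme of heme synthesis in red cells, overlapped with 0 and 27 against 65, 24 and 104. Reads shared between globin copies may have been split by the counting, and red cells were lysed before RNA was made.

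Stromal and epithelial markers did not separate the groups. The 13 fibroblast genes summed to 1281 and 7572 in CSF1Ri+CD40 against 8651, 1278 and 46 in CD40, so that CSF1Ri+CD40 3 and CD40 1 were high. Sparc, for example, had 454 and 3353 against 2781, 178 and 6, and Col1a2 had 31 and 774 against 639, 31 and 0. The 14 keratinocyte genes summed to 862 and 3807 against 2722, 1355 and 460, with Krt14 at 218 and 843 against 363, 77 and 11 and Krt15 at 31 and 174 against 117, 8 and 0. The 12 mast cell and basophil genes summed to 14626 and 3315 against 30738, 4238 and 5712. The 10 melanocyte genes summed to 391 and 1331 against 1536, 1217 and 383. Among the 8 tested, only the pigment cell gene Pmel was apart, below, with 119 and 137 against 203, 540 and 383. The shares of all genes apart were 8.72% above and 7.33% below. The 12 neutrophil genes summed to 73 and 89 against 335, 127 and 158, and 6 of them were tested, with 1 apart below. The 3 tested endothelial genes were 2 higher and 1 lower, with 1 apart above. Of the 11 tested NK cell genes, 6 were higher and 5 lower, with 2 apart above and 1 below. The part of these cells in the differences above was not tested.

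Lists of general cell programs had medians between -0.10 and 0.35. Of 32 cell cycle genes, 19 were higher and 13 lower with a median of 0.19, 6 apart above and 1 below, against 8.72% and 7.33% of all genes. With a term for Y-linked transcripts that median was 0.023. The replication helicase genes Mcm5 and Mcm4 had 2178 and 1866 in the CSF1Ri+CD40 libraries against 1524, 1164 and 921 in the CD40 libraries, and 2583 and 2087 against 1745, 467 and 1448. Ccne1, a cyclin of the start of replication, went the other way with 28 and 48 against 144, 93 and 246, and the proliferation marker Mki67 overlapped with 2151 and 2084 against 1634, 2270 and 1825. Immediate early and heat shock genes were higher in 23 of 25 with a median of 0.35, and 3 were apart above, against 8.72% of all genes. Without CD40 3 they were 14 higher and 11 lower with a median of 0.18. One of those apart, Zfp36, which destabilises cytokine mRNA, had 5286 and 5228 against 3509, 3165 and 3353. Cholesterol and fatty acid synthesis genes were higher in 17 of 22 with a median of 0.31, and with a term for Y-linked transcripts in 10 of 22 with a median of -0.0087. Apart above were 3 and below 1, against 8.72% and 7.33% of all genes. Among the 3 were the desaturase gene Scd2 at 606 and 872 against 337, 362 and 266 and Nsdhl at 692 and 951 against 469, 592 and 415. The 14 genes of the oxidative stress response were 7 higher and 7 lower, with 3 apart above and 2 below, against 8.72% and 7.33% of all genes. Besides Osgin1 the quinone reductase gene Nqo1 was apart above, with 53 and 79 against 9, 0 and 15.

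Among the metabolic and translation lists, nuclear genes of oxidative phosphorylation were lower in 26 of 36 with a median of -0.10, and cytosolic ribosomal protein genes in 47 of 56 with a median of -0.065. Only 3 of the first list and 1 of the second were apart below, and 0 and 1 above, where the shares of all genes were 7.33% below and 8.72% above. Without CD40 2 both lists turned, to 23 higher and 13 lower with a median of 0.052 for oxidative phosphorylation and to 36 and 20 with a median of 0.049 for the ribosomal proteins. With the replicate number as a block they were 23 and 13, and 31 and 25. Without CD40 3 more members were apart below, 23 of 36 and 43 of 56, against 18.4% of all genes. All 7 tested mitochondrially encoded transcripts of 13 were higher, with a median of 0.18 and none apart, and CD40 3 had the lowest sum of them, 98256, against 151622 and 215118 in the CSF1Ri+CD40 libraries and 197021 and 180493 in the other CD40 libraries. Without CD40 3 that median was -0.071 and without CSF1Ri+CD40 3 it was -0.014. It was -0.16 with a term for Y-linked transcripts and -0.11 in the libraries without them. Glycolysis and hypoxia genes were 15 higher and 8 lower of 23, with a median of 0.076. Without CD40 3 they were 6 higher and 17 lower with a median of -0.20, and without CSF1Ri+CD40 1 they were 8 and 15 with a median of -0.16. Genes of the unfolded protein response were 10 higher and 4 lower of 14, with a median of 0.25, which was -0.030 with a term for Y-linked transcripts.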

How the data were processed

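RNA of T cells from mouse melanomas was sequenced in 10 libraries of 4 groups, and 5 of them are compared here. Per the labels' protocols, libraries were unstranded, from 50 ng RNA and read as 75-base pairs, and reads were aligned with STAR to GRCm38 (mm10), counted with HTSeq and taken into DESeq2. Tool versions and the gene annotation are not given in the sources used here. The values deposited by the authors as normalized counts are scores here, whole numbers whose size factors, computed again, were nearly equal (1.03 to 1.04), as after division by a size factor and rounding. Depth per library is therefore unknown, and tests that need raw counts were not used.

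Numbers stand in place of 27 gene names, and 2 names are repeated. Equal values between any 2 of the 5 libraries made up at most 0.372% of genes. Genes reaching 10 in 2 or more of the 5 libraries were kept and taken to log2(value + 1). The added 1 shrinks fold changes of low genes, but values of 0 in some libraries can enlarge them or turn them against the group means. C1qb, for example, had a log2 fold change of 2.69 with a mean of 53.5 in CSF1Ri+CD40 and 132.7 in CD40. In the lists, higher and lower follow the log2 fold change. A model with the 4 groups was fitted to all 10 libraries in limma (version 3.58.1, under R 4.3.3), letting the variance follow the mean (6 residual and 5.05 prior degrees of freedom). Tests were two-sided, with Benjamini-Hochberg adjustment over 14042 genes for each of 2 contrasts. These were CSF1Ri+CD40 over CD40, and the same minus CSF1Ri over Control. On simulated data with known changes, the fit was checked for the size and direction of fold changes. That check set no condition on how many changes were found or falsely called, so it does not bear on the count of genes past the threshold.

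The comparison, the 41 gene lists (756 entries, 753 in the table, 696 tested) and the alternatives were chosen with earlier results of these data known. Named genes were the 10 per direction with the smallest p given a mean of 50 or more and libraries that were apart, without predicted or sex-linked genes. Some members of the lists and 18 fixed genes were added. Genes given as checks of a cell type (Adgre1, C1qb, Flt3 and Trdc) were picked with their values known. Against a group at 0, folds used a floor of 3 counts per library. Positions are from GENCODE vM21 and promoters from RefSeq, which held 14 of the 20 named genes. Other steps ran in Python 3.11.15 (pandas 2.3.3, numpy 2.4.6, matplotlib 3.10.9).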

Additional observations from a re-analysis of the deposited data

How the results depend on the processing

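The count of genes past the threshold in limma, 0 for CSF1Ri+CD40 over CD40, was 13 without the variance trend and 0 to 16 when 1 library was left out (3 without CD40 1, 16 without CSF1Ri+CD40 1, which include Lrrc45 and Plpp2, 1 without CSF1Ri+CD40 3, which is Hbb-bs, and 0 otherwise). It stayed 0 under the other planned settings, with 410 (the 5 libraries alone) to 1320 genes (without CD40 3) at an unadjusted p under 0.05. The test of the inhibitor's effect with against without the antibody gave 0 genes, 4 without the variance trend and 0 to 2 leaving out 1 library, the 2 being Il17a and Il17f without CD40 1. With the replicate block, in the 8 libraries without CSF1Ri, 0 genes passed and 567 had an unadjusted p under 0.05. The departures of same-numbered libraries correlated at 0.0075 and 0.054 over 8830 genes, which with 2 pairs does not show a pairing. The 20 named genes kept their direction in all 380 values. Much of this was fixed by their choice, since leaving out libraries or changing the pseudocount cannot turn genes whose groups are apart. The fits on the 5 libraries alone, without the variance trend and without the filter leave their fold changes as they are. Other signs turned round. With a term for Y-linked transcripts the log2 fold change was 0.040 for Cd40, -0.057 for Pdcd1, 0.13 for Tcf7, -0.027 for Krt15, -0.28 for Col1a2 and -0.27 for C1qb. In libraries without these transcripts it was -0.35 for Pdcd1, -0.27 for Ifng, -0.66 for Krt15, -1.17 for Sparc, -2.02 for Col1a2 and -3.07 for C1qb. With the block it was 0.36 for Il2 and -0.059 for Flt3. Leaving out 1 library gave -1.31 to 0.30 for Cd40, -0.35 to 0.45 for Cd4, -0.046 to 1.81 for Ifng, -0.85 to 0.47 for Il2, -0.61 to 0.24 for Tcf7 and -0.57 to 0.073 for Trdc. The cause was not tested. The groups hold 2 and 3 libraries, and a lone remaining library was assumed to vary as much as other groups do. Counts of list members whose groups do not overlap, without 1 library, were chosen after seeing the data.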
